A study of Homo sapiens with 97 samples.

Results

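The regions described here are the large late-replicating domains of U2OS osteosarcoma cells, stretches of 500 kb or longer that copy their DNA last in S phase. They were chosen by timing class and length: touching intervals of the same class in 4 deposited timing lists (early, mid-early, mid-late and late) were joined, and the late domains of at least 500 kb on chromosomes 1 to 22 and X were kept. This gave 341 of 1781 late domains and of 13611 timing domains of all classes. Being late and long is therefore how the members were selected and is no finding. Their place, their NS-seq peaks and the break sites inside them were not used in the choice.

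The series holds 97 samples and follows DNA replication around double-strand breaks cut by the restriction enzyme AsiSI in human cells. The timing lists come from merged samples of wild-type, untreated U2OS cells in G1 and S phase. NS-seq sequences short nascent DNA strands, which start at replication origins, and was made from AsiSI-U2OS cells, with 2 samples given 4OHT (300 nM for 4 h, to induce the breaks), 2 untreated control samples and 2 inputs. A list of AsiSI sites overlapping MRE11, an early sensor of broken DNA ends, belongs to 2 samples of HCT116 LIG4 KO AID RAD21 colorectal carcinoma cells, also given 4OHT. The NS-seq peaks form 1 merged list that cannot be assigned to 4OHT or control cells, so no comparison of treatments is made. Each list stands alone, with no separate replicates and with an unknown read depth. Intervals below are therefore 95% intervals for counting error only, and since they treat peaks as independent while peaks lie in clusters, they are too narrow. No p-value is given.

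Mammalian chromosomes replicate in large domains, in each of which many origins fire at about the same time. Early domains are rich in genes and open chromatin, whereas late domains are usually gene-poor, packed as heterochromatin and held at the nuclear lamina or the nucleolus. Origins mapped by nascent strands are known to be dense in early domains and sparse in late ones, where replication is finished by few origins, by origins that fire at varied places, or by forks that travel far.

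The large late domains made up 19.1% of late domains but 73.6% of late sequence, 552 of 750 Mb, and 18.7% of the 2953 Mb of listed sequence. The other 1440 late domains, under 500 kb and called short here, had a median length of 101.1 kb and covered 198 Mb. Large late domains had a median length of 1.19 Mb, with quartiles at 747.8 kb and 1.89 Mb and a range of 502.1 kb to 10.6 Mb. The 193 domains of 1 Mb or longer held 80.7% of the sequence, and the 79 domains of 2 Mb or longer held 50.7% of it. Most were joined from several listed intervals: 78 consisted of 1 interval, 97 of 2, 70 of 3 and 96 of 4 or more, and 262 held a single interval that alone reached 500 kb.

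The longest domain lay at chr13:61358701-71913200 (hg19), 10.6 Mb joined from 12 intervals. It was followed by chr5:18236701-27297000 at 9.06 Mb, chrX:84567201-93264800 at 8.70 Mb, chr2:76443101-84279600 at 7.84 Mb and chr3:80178901-87029700 at 6.85 Mb. The next 5 measured 6.61 Mb on chromosome 21 (19713201-26319400), 6.43 Mb on chromosome 3 (161393201-167822900), 6.08 Mb on chromosome 4 (131374901-137458500), 5.92 Mb on chromosome 6 (64443601-70361500) and 5.15 Mb on chromosome 8. The domains on chromosomes 2 and 4 were single unbroken intervals. Of these 10 longest domains, 8 held no NS-seq peak, against 85.0% of all 341 large late domains. At the other end of the range, the 3 domains just inside the length limit measured 502.1 kb on chromosome 6, 506.3 kb on X and 509.3 kb on chromosome 14. The 3 just outside it measured 499.7 kb on chromosome 11, 499.2 kb on X and 497.2 kb on chromosome 4. None of these 6 held a peak, as was usual at this length. No peak lay in 88.6% of late domains of 500 to 750 kb and in 89.1% of those of 300 to 500 kb.

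Large late domains were spread unevenly over the chromosomes, as the plot of share and number by chromosome shows. They took up 29.5% of the listed sequence of chromosome 4, in 33 domains, and 29.5% of chromosome 13, in 13 domains. Chromosomes 3, 5 and X followed with 26.1%, 25.7% and 23.8%. At the low end, chromosome 22 had none, chromosome 19 had 1 domain of 1.58 Mb (2.68% of its sequence) and chromosome 17 had 4 (7.39%). Chromosome X had many but mostly shorter ones, with 27 domains of median length 0.764 Mb, against medians of 2.30 Mb on chromosome 9 and 2.19 Mb on chromosome 11. The large domains held 84.4% of the late sequence of chromosome 3 but 62.6% on X and 38.8% on chromosome 19.

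**Figure D1:**
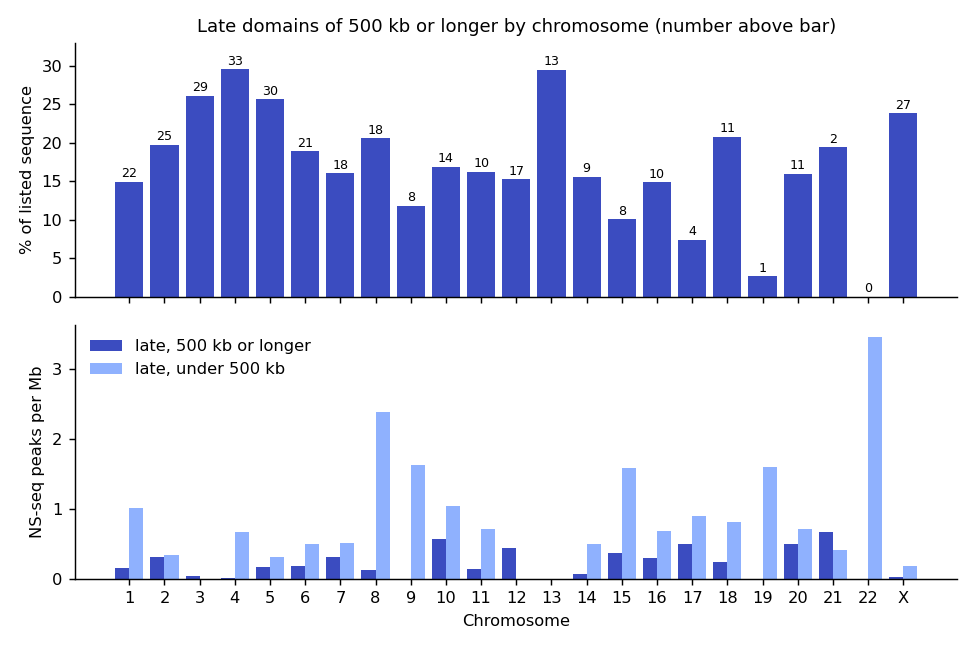
The upper bars give the percent of each chromosome's listed sequence in late domains of 500 kb or longer, with their number above the bar, and the lower bars give NS-seq peaks per Mb in large (dark) and short (light) late domains. Chromosomes 4 and 13 reach 29.5% and chromosome 22 has none, and in the lower bars the large late domains lie under the short ones on 18 chromosomes.

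Every large late domain was bordered by mid-late sequence on both sides, as were 1436 of the 1440 short late domains, and 0 lay at an end of the listed sequence. The flanking mid-late domain had a median length of 93.4 kb, with quartiles at 40.95 and 209.9 kb. From a border of a large late domain, the nearest mid-early or early sequence lay a median of 908 kb away, against 798 kb for short late domains, and the nearest early sequence lay 2182 kb away, against 2105 kb.

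Consecutive large late domains on a chromosome were separated by 319 stretches of other sequence with a median length of 3.17 Mb, and 62 of these were 200 kb or shorter. In 109 stretches replication came no earlier than mid-late. Those stretches had a median of 119.6 kb, and 103 of them held no peak, with 7 peaks in all and 0.150 peaks per Mb. The 47 stretches reaching mid-early held 0.432 peaks per Mb, and 32 of them held none. The 163 stretches reaching early, of median length 7712 kb, held 0.860 per Mb, and 48 of them held none.

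NS-seq peaks, taken as places where nascent strands were enriched, were rare in the large late domains. The 341 domains held 101 of 3724 peaks (2.71%), which is 0.183 peaks per Mb (0.149 to 0.222), and these 101 lay in 51 domains. The other 290 domains, 85.0% (80.8 to 88.7%), held no peak. Among domains of 500 kb or longer of all 4 classes, 69.7% held no peak, and among late domains of any length 92.3% did. Over all 13611 timing domains of any class and length the share was 86.9%. The share of large late domains without a peak was thus close to that over all timing domains. It lay above that of all domains of 500 kb or longer and below that of late domains in general. All these sets include the large late domains and none was matched for length, and a longer domain has more room for a peak. Densities per Mb do not carry that effect of length, and the density over all timing domains was 1.26 peaks per Mb.

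Short late domains held 142 peaks at 0.716 per Mb (0.603 to 0.844), so the density in large late domains was 0.256 times that in short ones (0.196 to 0.332). Large early domains, 423 regions of 500 kb or longer covering 430 Mb, held 767 peaks at 1.78 per Mb (1.66 to 1.92), and 49.9% of them had none. Large late density was 0.103 times the large early density (0.0825 to 0.126). In domains of 500 kb or longer the density was 0.687 peaks per Mb in mid-late and 0.458 in mid-early domains. The mid-early value rests on 20 listed intervals over 1 Mb (1.17 to 21.0 Mb), which cover 99.9 of its 133 Mb and hold 0 peaks. Without them it was 1.84 per Mb (1.41 to 2.36), above mid-late. These wide intervals may be gaps in the assembly, which could not be checked without an hg19 genome. On all 22 chromosomes that have large late domains, their density was below that of large early domains. Against short late domains it was below on 18 chromosomes and above on 3 (chromosomes 3, 12 and 21), and both were 0 on chromosome 13.

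Peaks differed between chromosomes. Chromosome 2 had 15 peaks in its large late domains, chromosome 10 had 13 and chromosome 12 had 9, whereas the large late domains of chromosomes 9, 13 and 19 had 0. Chromosome 4, with the largest number of domains, had 1 peak in 56.4 Mb (0.0177 per Mb), X had 1 (0.0270 per Mb) and chromosome 3 had 2 (0.0387 per Mb). The highest densities were 0.664 per Mb on chromosome 21, 0.568 on chromosome 10 and 0.500 on chromosome 17. They rest on few domains. All 5 peaks on chromosome 21 lay in 1 domain, as did all 3 on chromosome 17. Of the 13 on chromosome 10, 7 lay in 1 domain and 5 in another.

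The score of a peak, the authors' own value, had a similar median in each group. The median score was 11.9 in large late domains, with quartiles of 11.0 and 14.0 and a range of 10.0 to 21.9. The median was 11.9 in short late domains, 11.5 in large early domains and 11.8 over all peaks, with upper quartiles of 13.7, 13.0 and 13.6. Of the peaks in large late domains 55.4% scored at or above the median of all peaks. The share was 51.4% in short late and 45.8% in large early domains.

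Among large late domains, the share without a peak changed little with length while the density dropped in the longest. Domains of 0.5 to 0.75 Mb held 0.257 peaks per Mb and 88.6% of the 88 had none. Domains of 0.75 to 1 Mb held 0.345 per Mb and 85.0% of 60 had none. Domains of 1 to 2 Mb held 0.290 per Mb and 84.2% of 114 had none. The 79 domains of 2 Mb or longer had 21 peaks, 0.0750 per Mb, and 82.3% of them had none. The density at 2 Mb or longer was 0.255 times that at 0.5 to 2 Mb (0.150 to 0.416). This ratio leans on few domains. Of the 80 peaks at 0.5 to 2 Mb, 39 lay in the 7 domains with 4 or more peaks described below. Of the 12 domains of 5 Mb or longer, 10 held no peak and the others 1 each. Short late domains also held fewer peaks per Mb with length, though the intervals of neighbouring bins overlapped. Their density was 1.03 per Mb under 100 kb, 0.723 at 100 to 200 kb, 0.639 at 200 to 300 kb and 0.565 at 300 to 500 kb. A fall with length is thus not particular to the large domains. Early domains of 500 kb or longer showed no such drop. Those of 0.5 to 0.75 Mb held 1.68 per Mb, and the 24 of 2 Mb or longer held 2.38 per Mb, with no peak in 20.8% of these 24.

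**Figure D2:**
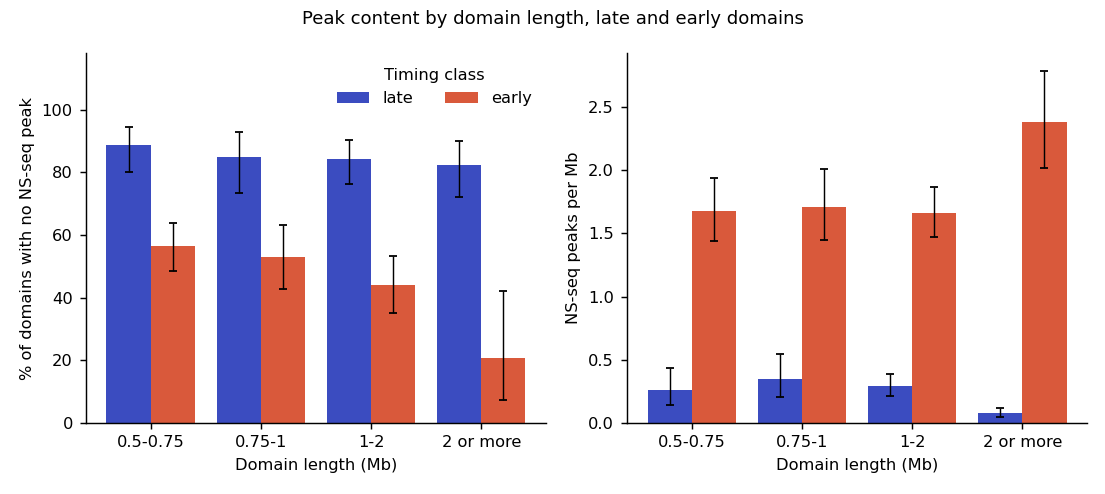
Bars give the percent of domains with no NS-seq peak (left) and NS-seq peaks per Mb (right) for late (blue) and early (red) domains in 4 length bins, with 95% counting intervals (Clopper-Pearson for shares, Poisson for densities). Late domains stay between 82.3% and 88.6% without a peak in every bin, and their density is lowest, 0.0750 per Mb, at 2 Mb or longer.

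The peaks were concentrated in a few domains. A single peak lay in 32 domains, 2 peaks in 6, 3 in 6, and 4 or more in 7. These last 7 domains held 39 peaks (38.6%), and without them the density was 0.114 per Mb. They measured 0.517 to 1.95 Mb. The highest number, 7 peaks, was reached in chr2:2410301-3474700 (1.06 Mb) and in chr10:44274101-45305500 (1.03 Mb). In the domain on chromosome 2, which starts 2.41 Mb from the end of the listed sequence, the 7 peaks were spread between positions 2575917 and 3423229. Then came chr5:2071801-3504300 with 6 peaks in 1.43 Mb, chr10:131251401-133196600 with 5 in 1.95 Mb and chr7:56028101-57929400 with 5 in 1.90 Mb. Of the 101 peaks, 13 had another in the same domain within 10 kb and 36 within 100 kb.

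All 7 of these domains lay within 5 Mb of either an end of the listed sequence of the chromosome (4 domains) or one of the 20 peakless mid-early intervals over 1 Mb, which may be assembly gaps (3 domains). This pattern was noticed after the values were seen, and the distance of 5 Mb was set then. No hg19 genome was used, so gaps in the assembly were not subtracted from the listed sequence, here or in any density or peak-free span. The 18 large late domains near an end held 31 peaks, 1.38 per Mb, and 44.4% of them had none. The 39 near a wide mid-early interval held 30 peaks, 0.451 per Mb, and 74.4% had none. Both kinds together, 57 domains of 88.9 Mb, held 61 peaks at 0.686 per Mb (0.525 to 0.881), and 64.9% had none. The other 284 domains, 463 Mb, held 40 peaks at 0.0864 per Mb (0.0617 to 0.118), and 89.1% had none. The near density was 7.94 times the far one (5.24 to 12.1). The 7 domains that prompted the split carry much of this value, with 39 of the 61 near peaks. Without them the near domains held 22 peaks at 0.275 per Mb, and the ratio was 3.18 (1.80 to 5.48).

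The other classes were split in the same way. The near over far ratio was 8.48 (5.91 to 12.3) in short late domains, at 2.45 against 0.289 peaks per Mb, and 2.15 (1.77 to 2.60) in large early domains. In large early domains the higher density lay near ends, at 4.78 per Mb, while those near a wide mid-early interval held 1.53 per Mb (0.969 to 2.29) and far ones 1.62 per Mb. Large late domains kept the lower density on both sides of the split. Among near domains their density was 0.280 times that of short late ones (0.200 to 0.390) and 0.197 times that of large early ones (0.143 to 0.268). Among far domains it was 0.299 times that of short late ones (0.191 to 0.467) and 0.0533 times that of large early ones (0.0377 to 0.0734). The plot of peaks against length shows both patterns, since the 7 domains with 4 or more peaks all measured under 2 Mb and lay near an end or a wide mid-early interval.

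**Figure D3:**
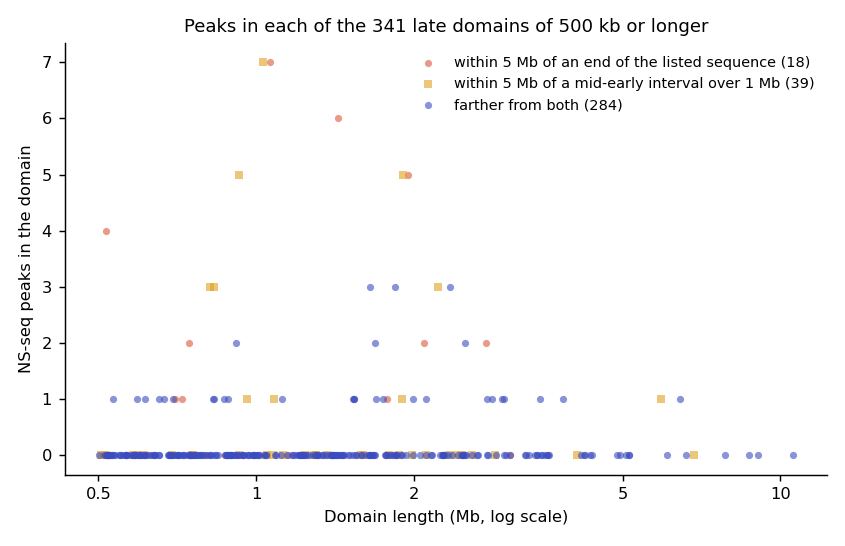
Each point is 1 of the 341 late domains of 500 kb or longer, placed by its length (Mb, log scale) and its number of NS-seq peaks, and marked by place: within 5 Mb of an end of the listed sequence (18), within 5 Mb of a mid-early interval over 1 Mb (39), or farther from both (284). The row at 0 holds 290 domains, and the 7 domains with 4 or more peaks are all shorter than 2 Mb and lie near an end or a wide mid-early interval.

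Inside the domains, pooled peak density was higher within 100 kb of a border than farther in. The size of this difference depended on the setting, and the density did not fall steadily from the border. The median distance of a peak to the nearest border was 270.3 kb, with quartiles at 130.6 and 493.4 kb. Of the 101 peaks, 58 lay nearer to the border than to the centre and 43 nearer to the centre. Within 100 kb of a border lay 21 peaks (20.8%, 13.4 to 30.0%) in 12.4% of the sequence, at 0.308 per Mb (0.191 to 0.471). Farther inside lay 80 peaks at 0.165 per Mb (0.131 to 0.206), and the ratio of border to interior was 1.86 (1.09 to 3.04). Up to 25 kb from the border the density was 0.293 per Mb, and from 25 to 50 kb it was 0.117. From 50 to 100 kb it was 0.411, with 14 of the 21 peaks. It was 0.235 from 100 to 200 kb and 0.303 from 200 to 300 kb. From 100 to 500 kb as a whole the density was 0.238 per Mb, and from 500 to 1000 kb it was 0.153. Beyond 1 Mb it was 0.0410 (0.0133 to 0.0956), with 5 peaks in 122 Mb. Sequence over 1 Mb from a border exists in domains of 2 Mb or longer alone, so depth inside and length are tied. Taken within length groups, border and interior densities were 0.127 (2 peaks) and 0.0719 per Mb in domains of 2 Mb or longer. In domains under 2 Mb, with 19 of the 21 border peaks, they were 0.363 (0.218 to 0.566) and 0.278 per Mb (0.213 to 0.357). The intervals overlapped in both groups. The pooled ratio joins domains of different length, and how much this adds to it was not tested. With the border zone set to 50 kb the ratio was 1.13, and in domains of 1 Mb or longer it was 1.38 (0.571 to 2.90). Over 34 alternatives the ratio stayed above 1, but in 9 its interval reached below 1. These were the 50 kb zone, domains of 1 Mb or longer, peaks at or above the median score, near domains left out, and chromosome 12, 16, 18, 20 or 21 left out (lower bounds 0.904, 0.994, 0.991, 0.938 and 0.991).

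The 5 peaks farthest from a border were single 1000 bp regions deep in domains on chromosomes 4, 5, 6 and 7. At chr6:68372583-68373582 a peak of score 10.5 lay 1988 kb from the border of the 5.92 Mb domain. The peak at chr4:179874435-179875434, of score 10.2, lay 1407 kb inside a domain of 2.97 Mb. A pair in 1 domain of 2.22 Mb, at chr7:63087067-63088066 (score 13.7) and chr7:63016015-63017014 (score 12.7), lay 1082 and 1011 kb inside. The peak at chr5:8580771-8581770, with the highest score of the 5 at 17.9, lay 1011 kb inside a domain of 2.51 Mb.

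At matched distance from a border, large late domains held fewer peaks than short ones. Within 100 kb of a border the density was 0.308 per Mb in large late domains and 0.773 per Mb in short late domains, a ratio of 0.398 (0.238 to 0.636). Large early domains had 2.12 peaks per Mb in their outer 100 kb, 1.70 farther inside and 2.52 beyond 1 Mb.

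Outside the large late domains peaks did not become frequent at once. Sequence within 25 kb of a large late domain, 99.6% of it mid-late, held 1 peak (0.0611 per Mb). From 25 to 50 kb the density was 0.199 per Mb, from 50 to 100 kb 0.461, from 100 to 200 kb 0.316, and from 200 to 300 kb 0.253. It was 0.418 from 300 to 500 kb, 0.586 from 500 to 1000 kb and 0.828 from 1 to 2 Mb, where 32.0% of the sequence was early. Part of the outside sequence was itself late, in short late domains. That part was 30.1% at 50 to 100 kb, 41.3% at 100 to 200 kb, 33.4% at 200 to 300 kb and 24.2% at 300 to 500 kb. The 618 mid-late domains that touch a large late domain held 0.333 peaks per Mb (0.232 to 0.463), and 96.1% of them had none. Mid-late domains touching short late domains alone held 0.806 per Mb, and 90.6% of them had none. Those touching no late domain held 1.98 per Mb, and 84.8% had none. Over all timing domains 86.9% had none, and these groups were not matched for length.

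**Figure D4:**
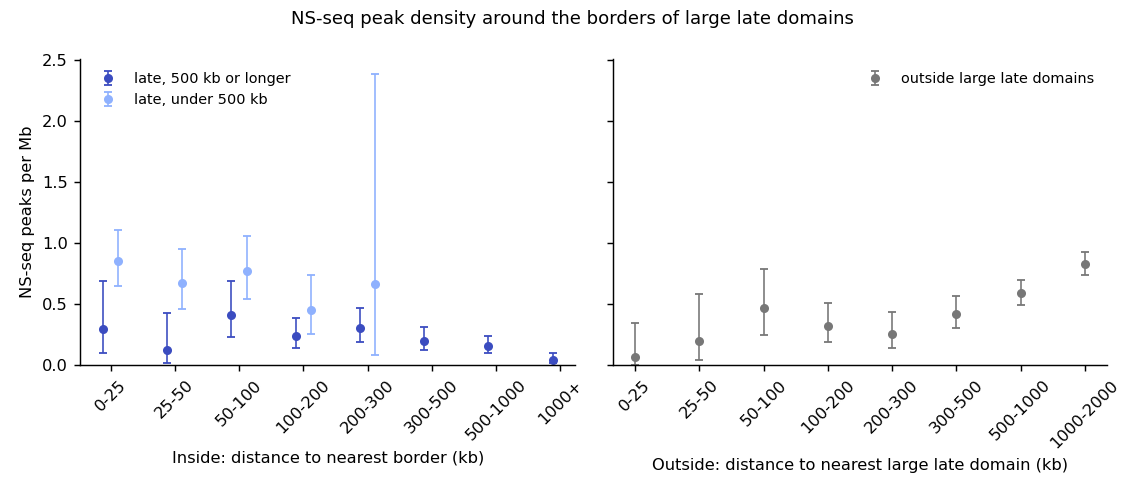
Points give NS-seq peaks per Mb with 95% Poisson intervals, on the left by distance (kb) from the nearest border inside large (dark) and short (light) late domains, on the right by distance outside the nearest large late domain. Inside, the large late density is lowest beyond 1000 kb at 0.0410 per Mb, and outside it is 0.0611 per Mb next to the border and 0.828 at 1000 to 2000 kb.

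Most domains without a peak lay over 1 Mb from any peak. From the border of the 290 peakless large late domains the nearest peak was a median of 2577 kb away (quartiles 1102 and 5686 kb), against 1850 kb for peakless short late and 880 kb for peakless large early domains. It was over 1 Mb away for 223 of them (76.9%), against 65.7% of peakless short late and 46.9% of peakless large early domains, and within 100 kb for 8 of the 290. Of the 5 longest peakless domains, the one on chromosome 13 was 16.2 Mb from the nearest peak and the one on chromosome 5 was 0.651 Mb away. The corresponding distances were 3.25 Mb for the domain on X, 0.604 Mb for that on chromosome 2 and 7.02 Mb for that on chromosome 3.

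Most large late sequence lay in long peak-free spans. Between neighbouring peaks, 139 spans of 5 Mb or longer covered 1724 Mb (58.4% of the listed sequence). These held 81.8% of the large late sequence and 253 whole large late domains (74.2%). The share of other domains lying whole in the spans is not given here. Spans hold no peak by definition and 290 of the 341 domains held none, so this overlap partly restates that count. Early sequence made up 17.0% of the spans and 26.0% of the whole, so the spans are not late alone. The longest span, 52.6 Mb at chrX:81315897-133930574, held 10 whole large late domains, and 36.6% of it was large late sequence. A span of 50.5 Mb at chr13:45151521-95677592 held 9 and was 48.7% large late. On chromosome 3 a span of 24.5 Mb (73160032-97707862) was 76.7% large late and held no early sequence.

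Break sites were rare in these domains as well. Of the 129 AsiSI sites that overlap MRE11 in the HCT116 cells, 2 lay in large late domains of U2OS cells (1.55%, 0.188 to 5.49%), or 0.362 per 100 Mb (0.0439 to 1.31) against 5.29 per 100 Mb (4.41 to 6.29) in the rest of the listed sequence. The lists come from different cell lines, so a site's timing in HCT116 cells is not known from them, and the density of uncut AsiSI sites was not used here. One site, chr1:192514431-192514438, lay 426 kb from the border of a domain of 5.08 Mb at 187862301-192940500, and the nearest NS-seq peak was 7934 kb away. The other, chr13:105238551-105238558, lay 260 kb from the border of a domain of 1.31 Mb at 104978501-106285000, with the nearest peak 3629 kb away. Both domains held no peak, as did 85.0% of all large late domains. Short late domains were poor in sites too, with 1 site in 198 Mb, against 2 in the 552 Mb of large late domains. The low number is therefore not particular to the large ones.

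For the 124 sites outside large late domains on chromosomes that have one, the median distance to the nearest large late domain was 4.94 Mb, against 3.17 Mb for the outside sequence of the same chromosomes. Over 1 Mb away lay 113 sites (91.1%, 84.7 to 95.5%) and 79.6% of that sequence. Within 500 kb lay 9 sites (7.26%, 3.37 to 13.3%) and 11.1% of the sequence, and within 100 kb lay 0 sites (up to 2.93%) and 2.52% of the sequence, so at these short distances the counts do not differ from the share of sequence beyond counting error. The nearest, chr4:178363575-178363582, was in mid-late sequence 104.1 kb from a large late domain. The remaining 3 sites were on chromosome 22.

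**Figure D5:**
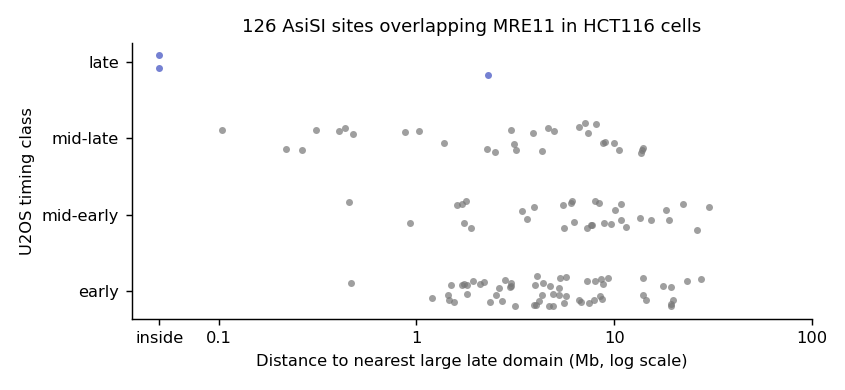
Each point is 1 AsiSI site with MRE11 overlap (HCT116 cells), by U2OS timing class (rows, with vertical scatter for legibility) and distance to the nearest large late domain (Mb, log scale). The 2 sites marked inside are in large late domains, and of the other 124 the nearest lies 104.1 kb away; 3 sites on chromosome 22, which has no large late domain, are not drawn.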

How the data were processed

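The data are 6 deposited lists of regions from human cell lines. Coordinates are on hg19 and MACS2 was among the tools, per the submitters' processing notes, which state no version or role. Not given in the sources used here are the aligner, the peak settings, the libraries pooled into the NS-seq list and the division into timing classes. The NS-seq list, as deposited by the authors, gives each peak a score with no stated scale, 10.0 at the lowest, and this score served only to describe peaks of this list and to filter them. The other deposited lists were used for their coordinates. Timing borders are listed in steps of 100 bp, but how precisely they were placed is not known. The shortest stretch between consecutive large late domains was 20.6 kb.

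Touching intervals of 1 class were joined, peaks and sites were placed by midpoint, and border distances were measured to the nearest edge shared with another class. Shares have exact Clopper-Pearson intervals, densities exact Poisson intervals and ratios exact conditional binomial intervals, all at 95%. They cover counting error only, and depth is unknown. The counting was tested on simulated data. Python 3.11.15, NumPy 2.4.6, SciPy 1.17.1 and Matplotlib 3.10.9 were used. No hg19 genome or annotation was used here, so no gene, band or sequence is given for a domain.

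Members and comparisons were chosen with earlier results of these data known. Regions were named by rule: the 10 longest domains, the 5 longest with no peak, the 5 with most peaks (ties by length), the 3 on either side of the length limit, the 5 peaks farthest from a border, every domain with a break site, and the chromosomes with the highest and lowest shares. Other chromosomes, peak-free spans and the nearest site outside were named after their values were seen. For 7 results, 175 alternatives were computed: other lengths, placements, border zones and scores, and each chromosome left out.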

Additional observations from a re-analysis of the deposited data

Results flagged for a closer look

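The NS-seq list also holds 17 peaks on mitochondrial DNA, outside the nuclear sequence described above, and the late timing list holds a mitochondrial interval of 16.4 kb. A further 9 peaks are listed on chromosome Y, which was not part of the selection and has 2 late intervals, the longest of 117.1 kb.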

How the results depend on the processing

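Of 175 alternatives to 7 results, 134 were planned and the others were added after seeing the data. Of the 175, 167 stayed within the interval or 1.5-fold range of the reported value. A turn of direction was defined for the ratios alone, and 0 of these turned. Asking for at least 1 Mb left 193 domains. Keeping the peaks at or above the median score, which removes peaks by construction, gave 90.6% of domains with no peak and 0.101 peaks per Mb. Leaving out the domains within 5 Mb of an end or a wide mid-early interval gave 89.1% and 0.0864 per Mb, and leaving out the domains with 4 or more peaks gave 0.114 per Mb and a near over far ratio of 3.18, since those domains prompted the split. With the near distance set at 2 Mb that ratio was 4.56, and the cause was not tested. Leaving out 1 chromosome at a time gave 83.8 to 85.8% of domains with no peak, 0.166 to 0.202 peaks per Mb, a large over short late ratio of 0.227 to 0.315, a border ratio of 1.63 to 2.11 and a near over far ratio of 6.39 to 9.52. No paired analysis was possible because no list separates the replicates. Peak lists without depth cannot show whether a domain listed with no peak has no origins or too few reads to call one, and with 101 peaks and 2 sites the border ratio and the site density are imprecise.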
